A study of Mus musculus with 28 samples.

Results

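The genes of the immunoproteasome and of peptide loading were followed in primary mouse embryonic fibroblasts (MEFs) after doxorubicin (Doxo) and after H2O2. Every probe set whose only gene symbol was Psmb8, Psmb9, Psmb10, Psme1, Psme2, Tap1, Tap2, Tapbp or B2m was taken. This gave 10 of the 45037 probe sets tested, for 6 of the 9 genes. No probe set carried the single symbol Tap1, Tap2 or B2m, and these 3 genes were not analysed here under their own names. By the labels, WT and p66-/- MEFs were exposed to 0.25 µg/ml doxorubicin, an anthracycline that damages DNA, for 4 h (2 arrays for each genotype). WT, p66-/- and p53-/- MEFs were exposed to 400 µM H2O2, an oxidant, for 4 h (4 arrays each), and untreated MEFs of the same 3 genotypes served as controls (4 arrays each). All MEFs were at passage 2 and came from embryos of day 13.5. p66-/- cells lack the largest protein of the Shc1 gene and p53-/- cells lack the tumour suppressor p53. The strain is C57Bl/6 by the labels, and another one by the methods of the study.

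Proteasomes degrade proteins in a barrel whose catalytic subunits are Psmb5, Psmb6 and Psmb7 in most cells. In cells exposed to interferon, Psmb8, Psmb9 and Psmb10 are built in instead, and the resulting immunoproteasome releases a different set of peptides. Psme1 and Psme2 form an activator that caps the barrel. Tap1 and Tap2 carry peptides into the endoplasmic reticulum, Tapbp (tapasin) holds class I heavy chains at this transporter while they are loaded, and B2m is the light chain of class I molecules. In fibroblasts these genes are best known as targets of interferon gamma.

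Values are log2 intensities, as summarized by RMA, and each mean is limited in precision by the number of arrays. A gene with several probe sets was counted at the probe set with the highest mean over the 28 arrays. A gene was counted as risen or fallen when limma gave an adjusted p under 0.05 over all 45037 probe sets. Of the 10 probe sets, 9 lay above the lowest 40% of probe sets by mean. The exception was the weaker probe set of Psmb8, 1444619_PM_x_at. Fibroblast markers averaged between 8.04 and 9.27 over all arrays (7 genes). The 6 p53 targets measured, Cdkn1a among them, all fell in p53-/- MEFs relative to WT MEFs, by a median of 2.04 on the log2 scale, in a comparison where 0.613% of all probe sets fell. The loss of p66 was not checked here.

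Some features of the arrays bear on what follows. The arrays were grouped by their labels into 3 sets: the Doxo arrays, replicates 1 and 2, and replicates 3 and 4. Spike-in controls differed between these sets. The bioB control set the Doxo arrays (7.91 to 8.17) apart from all others (6.62 to 7.68). The lys control set replicates 1 and 2 (5.02 to 6.22) apart, but overlapped between the Doxo arrays (3.95 to 4.46) and replicates 3 and 4 (3.2 to 4.13). The lys control averaged 4.20 ± 0.21 on the Doxo arrays (SD, n = 4), 5.39 ± 0.32 on replicates 1 and 2 (SD, n = 12) and 3.62 ± 0.30 on replicates 3 and 4 (SD, n = 12). The Doxo set holds no untreated array, so Doxo and array set cannot be told apart. For p53-/- MEFs, the labels and a table of the study differ in which 4 arrays were treated, so that values within p53-/- cells are given as labelled. An exchange of the labels swaps the p53-/- H2O2 and p53-/- untreated groups wherever they are named and turns the sign of every H2O2 difference within p53-/- cells, at an equal adjusted p. In RNA from whole cultures, fewer cells of a type and less RNA per cell cannot be told apart.

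In WT MEFs, all 6 measured genes rose after Doxo, against 21.9% of all probe sets that rose. The median difference over the 6 genes was 1.22 on the log2 scale, and 0.13 over all probe sets. For p66-/- MEFs, the genes that rose after Doxo were 4 of the 6, against 26.6% of all probe sets, with a median of 1.14 over the 6 genes and 0.15 over all probe sets. After H2O2, 1 of the 6 genes rose in WT MEFs, against 1.86% of all probe sets. It was Psmb9 as read at 1416016_PM_at, a probe set that a table of the study gives to TAP1. The other probe sets of Psmb9 were not called. By limma none of the 6 genes passed the test in p66-/- MEFs (0.0178% of all probe sets called) or in p53-/- MEFs (4.56% called). At an unadjusted p under 0.05 there were 1 gene and 0 genes.

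**Figure D1:**
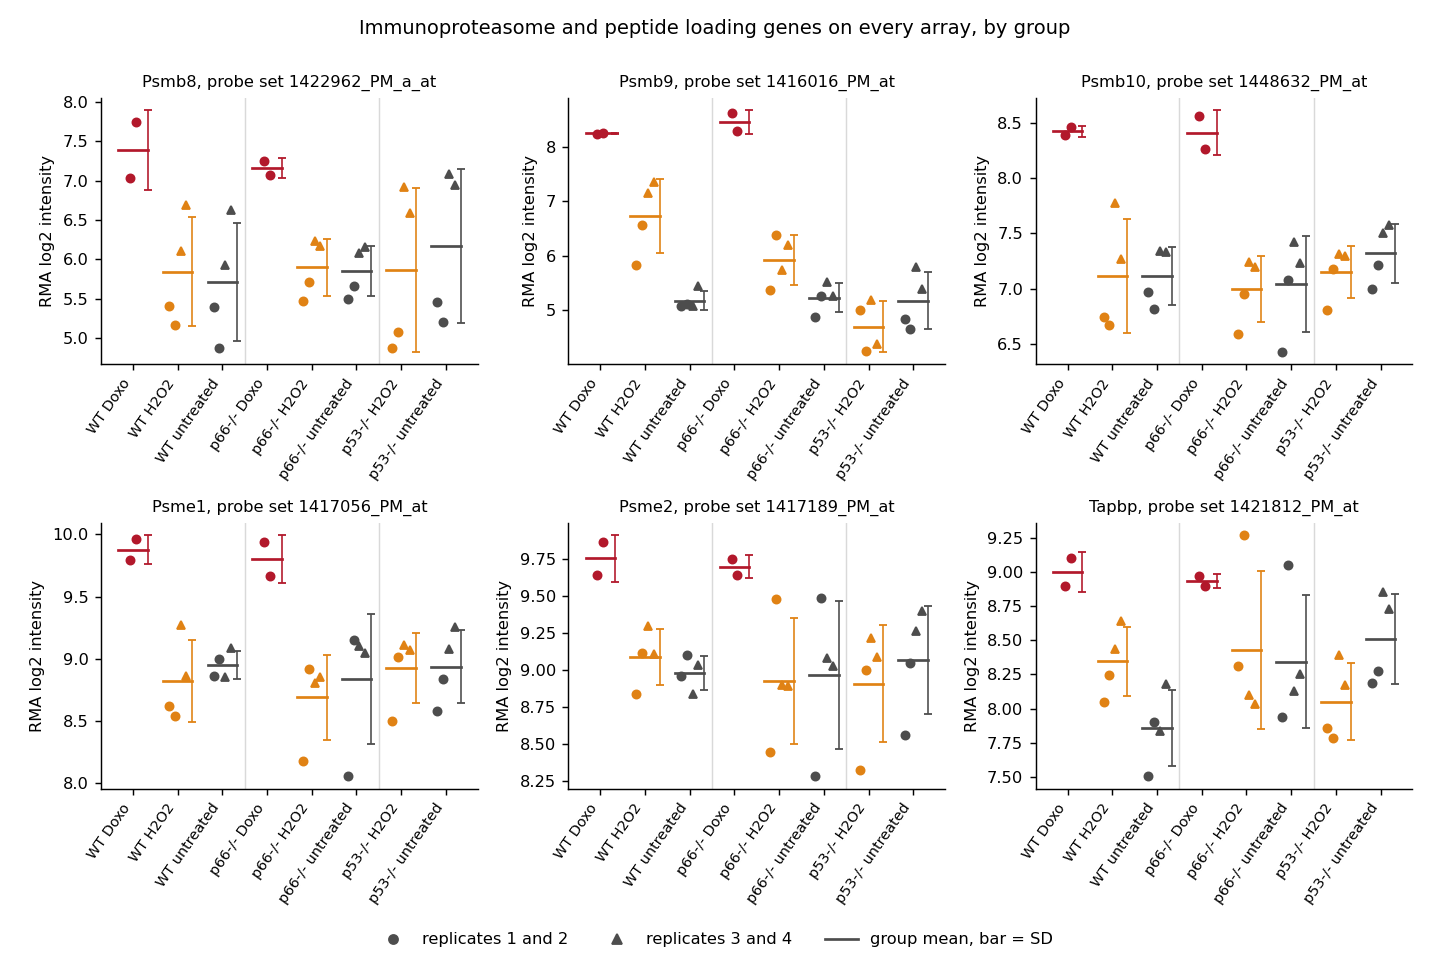
RMA log2 intensity (y axis) of the 6 measured genes, each at its brightest probe set on average, for each array of the 8 groups (x axis). Circles are replicates 1 and 2, triangles are replicates 3 and 4, horizontal lines are group means and bars are SDs. The Doxo groups have the 2 highest means for each gene. Only Psmb9, read at 1416016_PM_at, has a WT H2O2 group that lies above all WT untreated arrays. The transcript of this probe set is not settled.

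Among the catalytic subunits, Psmb8, which replaces Psmb5, read 7.03 and 7.75 on the WT Doxo arrays, against 5.40, 4.88, 5.93 and 6.63 on the WT untreated arrays. Both Doxo arrays lay above all untreated ones, and untreated replicates 3 and 4 were higher than replicates 1 and 2. Psmb8 rose by 1.68 on the log2 scale (SE 0.59, 3.21-fold, adjusted p = 0.0302). The call was lost without WT Doxo replicate 1 (difference 2.04, adjusted p = 0.0545) or 2 (1.32, adjusted p = 0.248), and without WT untreated replicate 1 (1.58, adjusted p = 0.0628) or 2 (1.40, adjusted p = 0.082). The difference thus stayed above 1.3 in each case. Psmb8 in p66-/- MEFs read 7.24 and 7.07 after Doxo, against 5.50, 5.66, 6.07 and 6.16 in untreated cells. These groups did not overlap either, but the difference of 1.31 (SE 0.59) did not pass the test (adjusted p = 0.0774). Against replicates 1 and 2 of the untreated cells alone, the differences were 2.25 in WT and 1.58 in p66-/- MEFs. Against replicates 3 and 4 alone, they were 1.11 and 1.04. All 4 passed the test (adjusted p = 4.42e-05 and 0.000361 with replicates 1 and 2; 0.00553 and 0.00939 with replicates 3 and 4). The low probe set of Psmb8, 1444619_PM_x_at, differed by 0.33 in WT MEFs (adjusted p = 0.0719) and by 0.26 in p66-/- MEFs (adjusted p = 0.139).

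The 5′ end of Psmb8 lies on chromosome 17 (GRCm38.p6, chr17:34198195-34201454, plus strand). Within 250 bases before its start, the RefSeq sequence holds 1 match to the interferon gamma activated site, TTCNNNGAA, which is palindromic and begins 97 bases before the start. It is shown because Psmb8 is the only one of the 8 genes with a promoter sequence here that has this match, which 7.02% of 32851 promoters have. The capitals mark the match in chr17:34198068-34198136 of the plus strand.
Psmb8 upstream: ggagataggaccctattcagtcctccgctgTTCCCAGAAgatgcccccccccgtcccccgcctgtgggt

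Psmb9, which replaces Psmb6, was read by 3 probe sets that did not move alike. The largest change of the 10 probe sets was that of 1416016_PM_at. The annotation used here gives this probe set to Psmb9, whereas a table of the study gives it to TAP1, the neighbouring gene, so that its transcript is not settled. It read 8.24 and 8.25 on the WT Doxo arrays, against 5.07, 5.12, 5.09 and 5.44 on the WT untreated arrays. It read 8.61 and 8.29 on the p66-/- Doxo arrays, against 4.89, 5.27, 5.52 and 5.26 on the p66-/- untreated arrays. Every Doxo array was thus far above every untreated array. The probe set rose by 3.06 in WT MEFs (SE 0.36, 8.36-fold, adjusted p = 2.39e-06) and by 3.22 in p66-/- MEFs (SE 0.36, 9.29-fold, adjusted p = 1.16e-06). Both calls held without any 1 array.

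The other 2 probe sets of Psmb9 had smaller changes. They are dim, and in WT untreated cells 1450696_PM_at averaged 4.25 and 1448177_PM_at 4.09, below every array median (4.353 to 4.464). The probe set 1450696_PM_at, designed on the RefSeq mRNA of Psmb9, read 4.95 and 5.55 on the WT Doxo arrays, against 4.07, 4.26, 4.30 and 4.36 on the WT untreated arrays. It read 4.99 and 4.98 on the p66-/- Doxo arrays, against 4.13, 4.32, 4.41 and 4.21 on the p66-/- untreated arrays. The groups did not overlap in either genotype, and the rise was 1.002 in WT MEFs (SE 0.21, 2.00-fold, adjusted p = 0.00089) and 0.72 in p66-/- MEFs (SE 0.21, 1.65-fold, adjusted p = 0.00874). The probe set 1448177_PM_at rose by 0.53 in WT MEFs (SE 0.19, adjusted p = 0.0292) and by 0.95 in p66-/- MEFs (SE 0.19, adjusted p = 0.000448). A rise after Doxo was therefore called in both genotypes at the 2 probe sets whose name is not in doubt, with sizes between 0.53 and 1.002, as well as at 1416016_PM_at.

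**Figure D2:**
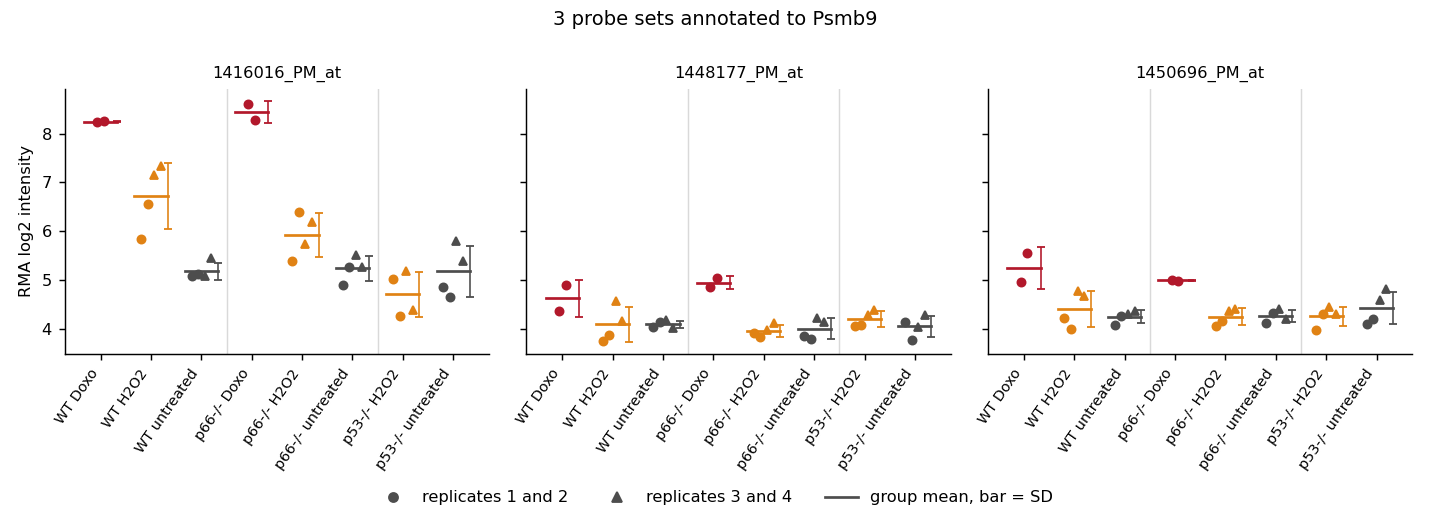
RMA log2 intensity (y axis) of the 3 probe sets annotated to Psmb9 on every array of the 8 groups (x axis), with circles for replicates 1 and 2, triangles for replicates 3 and 4, lines for group means and bars for SDs. The probe set 1416016_PM_at averaged 8.24 in WT Doxo, 6.72 in WT H2O2 and 5.18 in WT untreated cells, while the other probe sets read at most 5.55 on any array.

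Psmb9 (chr17:34182030-34187330, minus strand) and Tap1 (chr17:34187556-34197225, plus strand) start back to back and are separated by 225 bases (chr17:34187331-34187555, GRCm38.p6). The interval is shown since the 2 names given to 1416016_PM_at belong to these genes, which share it as the sequence before their start. It is written on the plus strand, with Psmb9 to the left and Tap1 to the right. The capitals mark a CCAAT box, CCAAT, and a GC box, GGGCGG, each searched on both strands. The CCAAT box begins 8 bases before the start of Psmb9 and the GC box begins 55 bases before it.
Psmb9 Tap1 interval: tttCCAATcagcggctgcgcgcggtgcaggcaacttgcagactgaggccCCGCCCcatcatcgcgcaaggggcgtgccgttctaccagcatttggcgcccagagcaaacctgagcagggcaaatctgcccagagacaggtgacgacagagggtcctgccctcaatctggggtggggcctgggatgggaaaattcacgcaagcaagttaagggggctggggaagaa

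A CCAAT box was found within 250 bases before the start in 33.8% of 32851 RefSeq promoters, and a GC box in 32.7%. Of the 8 genes with a promoter sequence here, 4 had a CCAAT box (Psmb9, Tap1, Tapbp and B2m) and 5 had a GC box (Psmb9, Psme1, Psme2, Tap1 and Tapbp). The core of the interferon-stimulated response element, GAAA repeated after any 2 bases, was found in B2m only (2.98% of all promoters), and so was a NF-kB site (7.25%). The core of the antioxidant response element, TGACNNNGC, was found in none of the 8 genes (10.2% of all promoters), and the same holds for a p53 half-site (7.13%). A match is a description of letters and does not show that a factor binds.

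Psmb10, which replaces Psmb7, had a single probe set. It read 8.39 and 8.46 on the WT Doxo arrays, against 6.97, 6.81, 7.34 and 7.33 on the WT untreated arrays. It read 8.56 and 8.26 on the p66-/- Doxo arrays, against 6.43, 7.08, 7.42 and 7.23 on the p66-/- untreated arrays. The Doxo arrays were above every untreated array in both genotypes. Psmb10 rose by 1.30 in WT MEFs (SE 0.28, 2.47-fold, adjusted p = 0.00113) and by 1.37 in p66-/- MEFs (SE 0.28, 2.58-fold, adjusted p = 0.000623), and both calls held without any 1 array.

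The subunits of the activator, Psme1 and Psme2, rose by less. Psme1 read 9.79 and 9.96 on the WT Doxo arrays, against 8.87, 8.998, 8.86 and 9.09 on the WT untreated arrays. It read 9.94 and 9.67 on the p66-/- Doxo arrays, against 8.06, 9.15, 9.10 and 9.05 on the p66-/- untreated arrays, of which replicate 1 was low. The groups did not overlap, and Psme1 rose by 0.92 in WT MEFs (SE 0.27, 1.90-fold, adjusted p = 0.0111) and by 0.96 in p66-/- MEFs (SE 0.27, 1.95-fold, adjusted p = 0.00728). The difference was 0.84 without WT Doxo replicate 2 (adjusted p = 0.108) and 0.83 without p66-/- Doxo replicate 1 (adjusted p = 0.0815).

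Psme2 read 9.64 and 9.87 on the WT Doxo arrays, against 8.96, 9.10, 8.83 and 9.03 on the WT untreated arrays. It read 9.75 and 9.65 on the p66-/- Doxo arrays, against 8.28, 9.48, 9.08 and 9.02 on the p66-/- untreated arrays. The Doxo arrays were the higher ones in each genotype, with p66-/- untreated replicate 2 close to them. The rise was 0.78 in WT MEFs (SE 0.28, 1.71-fold, adjusted p = 0.0384) and 0.73 in p66-/- MEFs (SE 0.28, 1.66-fold, adjusted p = 0.0438). Psme2 was the gene closest to the threshold. In WT MEFs its adjusted p lay between 0.0531 and 0.235 when Doxo replicate 1 or 2 or untreated replicate 1, 3 or 4 was left out, with differences of 0.66 to 0.89. For p66-/- MEFs it lay between 0.0543 and 0.177 without Doxo replicate 1 or 2 or untreated replicate 1 or 4, with differences of 0.50 to 0.79.

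Tapbp, the loading factor, read 8.89 and 9.10 on the WT Doxo arrays, against 7.50, 7.90, 7.84 and 8.18 on the WT untreated arrays. It read 8.97 and 8.90 on the p66-/- Doxo arrays, against 7.94, 9.05, 8.13 and 8.26 on the p66-/- untreated arrays. The groups were separate in WT MEFs and overlapped in p66-/- MEFs, where untreated replicate 2 was as high as the Doxo arrays. Tapbp rose by 1.14 in WT MEFs (SE 0.30, 2.20-fold, adjusted p = 0.00661), and without WT Doxo replicate 2 the difference was 1.04 (adjusted p = 0.0819). The difference in p66-/- MEFs was 0.59 (SE 0.30, adjusted p = 0.124), and without untreated replicate 2 it was 0.82 (adjusted p = 0.0324). The second probe set, 1450378_PM_at, rose by 0.55 in WT MEFs (adjusted p = 0.0372) and differed by 0.43 in p66-/- MEFs (adjusted p = 0.0915).

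The count of genes that rose depended on single arrays. In WT MEFs, 2 of the 6 genes passed the test without Doxo replicate 2, 4 passed without Doxo replicate 1 or untreated replicate 1, and 5 without untreated replicate 2, 3 or 4. For p66-/- MEFs, 2 genes passed without Doxo replicate 1, 3 without Doxo replicate 2 or untreated replicate 1 or 4, and 5 without untreated replicate 2. The size of the difference between p66-/- and WT MEFs in the response to Doxo was between -0.55 and 0.15 over the 6 genes, and limma called none of them (adjusted p = 1 for each). Over all probe sets this test called 0%, with 1077 at an unadjusted p under 0.05. The 95% interval of this difference was -0.90 to 1.20 for Psmb9 at 1416016_PM_at.

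**Figure D3:**
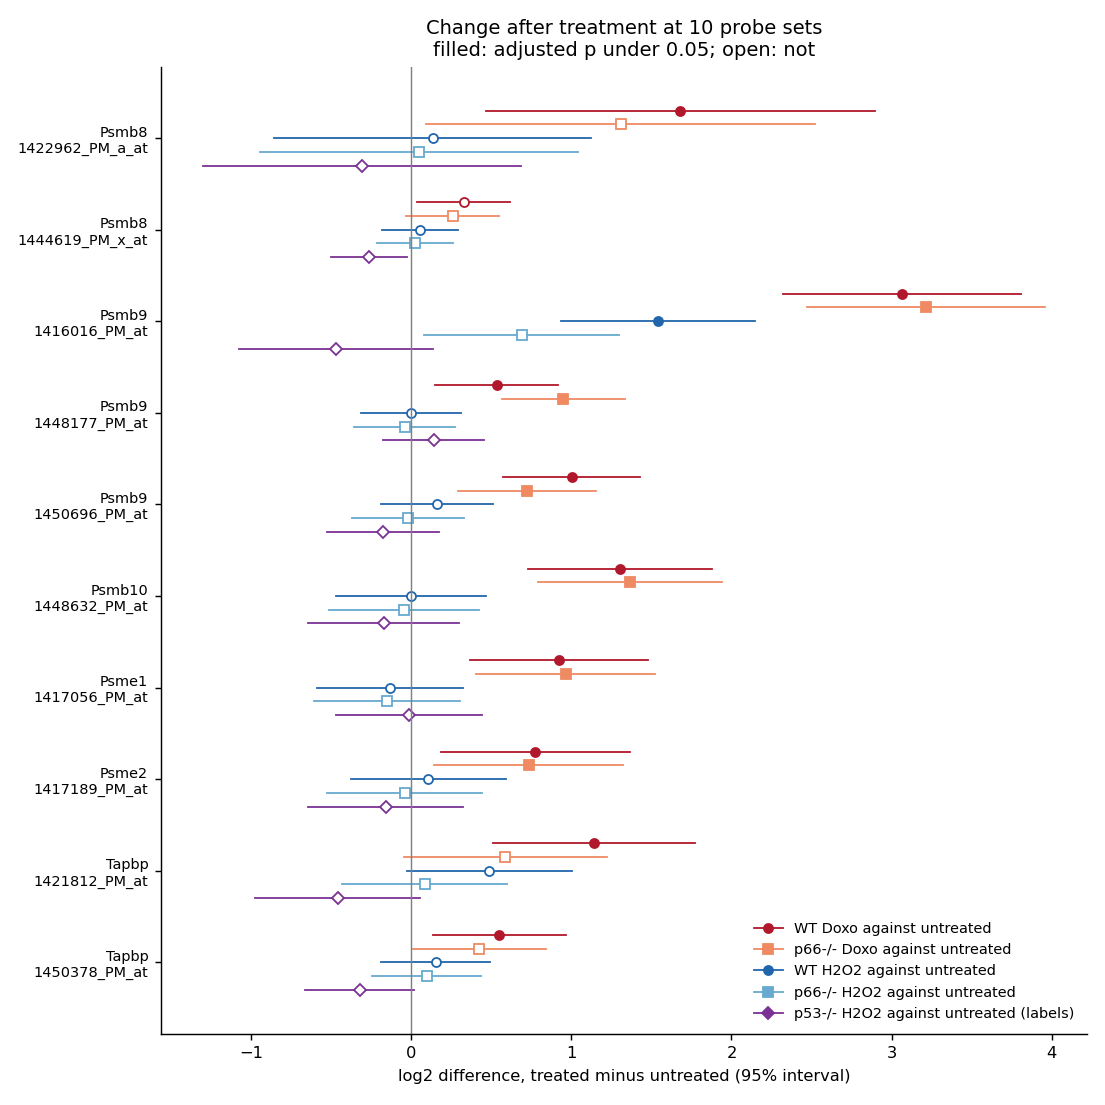
Log2 difference of treated minus untreated cells (x axis) with its 95% interval at each of the 10 probe sets (y axis), for Doxo in WT and p66-/- MEFs and for H2O2 in WT, p66-/- and, by the labels, p53-/- MEFs. Filled symbols have an adjusted p under 0.05; the Doxo differences lie to the right of 0 at every probe set, and of the H2O2 differences only that of 1416016_PM_at in WT MEFs, 1.54, is filled.

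The direct comparison of Doxo with H2O2 asked whether the 2 agents differ for these genes. In WT MEFs, 3 of the 6 genes were higher after Doxo than after H2O2, against 17.7% of all probe sets. In p66-/- MEFs this held for 4 of the 6 genes, against 30.4% of all probe sets. The count in WT MEFs depended on the test, since the methods' t-test called 0 genes (5 at an unadjusted p under 0.05), limma on these groups alone called 1, and the thresholds of the study, an unadjusted p under 0.05 and 1.5-fold, were met by 6. The medians over the 6 genes were 1.18 in WT and 1.19 in p66-/- MEFs, and those over all probe sets were 0.11 and 0.17. The H2O2 arrays belong to other array sets than the Doxo arrays, and these comparisons share the Doxo arrays with those above.

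Psmb10 read 8.39 and 8.46 on the WT Doxo arrays, against 6.75, 6.68, 7.77 and 7.26 on the WT H2O2 arrays, which did not overlap. The difference was 1.31 in WT MEFs (SE 0.28, adjusted p = 0.00133) and 1.41 in p66-/- MEFs (SE 0.28, adjusted p = 0.000428). Psme1 read 9.79 and 9.96 on the WT Doxo arrays, against 8.62, 8.54, 9.27 and 8.86 on the WT H2O2 arrays. It was higher after Doxo by 1.06 in WT MEFs (SE 0.27, adjusted p = 0.00544) and by 1.11 in p66-/- MEFs (SE 0.27, adjusted p = 0.00235). Without WT Doxo replicate 2 its adjusted p in WT MEFs was 0.0762.

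Psmb9 at 1416016_PM_at was higher after Doxo than after H2O2 by 1.52 in WT MEFs (SE 0.36, adjusted p = 0.00314) and by 2.53 in p66-/- MEFs (SE 0.36, adjusted p = 1.63e-05). The RefSeq-designed probe set was higher by 0.84 (SE 0.21, adjusted p = 0.00443) and 0.74 (SE 0.21, adjusted p = 0.00667). Psme2 was called in p66-/- MEFs (0.77, SE 0.28, adjusted p = 0.0314), where its adjusted p was 0.143 without Doxo replicate 1, 0.102 without Doxo replicate 2 and 0.0935 without H2O2 replicate 1. In WT MEFs its difference was 0.67 (adjusted p = 0.0793). Psmb8 fell just short in WT MEFs (1.55, SE 0.59, adjusted p = 0.05002), and passed without WT H2O2 replicate 3 (0.0458) or 4 (0.0306). Its difference in p66-/- MEFs was 1.26 (adjusted p = 0.0815). Tapbp differed by 0.65 in WT MEFs (adjusted p = 0.108) and by 0.50 in p66-/- MEFs (adjusted p = 0.175). Without p66-/- H2O2 replicate 2, Tapbp differed by 0.79 in p66-/- MEFs (adjusted p = 0.0247).

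H2O2 left 5 of the 6 genes without a call in WT MEFs. The exception was 1416016_PM_at, which read 5.83, 6.56, 7.15 and 7.34 on the WT H2O2 arrays, against 5.07, 5.12, 5.09 and 5.44 on the WT untreated arrays. Every treated array was above every untreated one, with the higher values on replicates 3 and 4. It rose by 1.54 (SE 0.29, 2.91-fold, adjusted p = 0.00268). The difference was 1.10 within replicates 1 and 2 (adjusted p = 0.244) and 1.98 within replicates 3 and 4 (adjusted p = 0.000378). Neither of the other probe sets of Psmb9 passed the test, since 1448177_PM_at differed by -0.0019 (SE 0.15, adjusted p = 1) and 1450696_PM_at by 0.16 (SE 0.17, adjusted p = 0.892). Both of these probe sets averaged below every array median in WT untreated cells. At such levels a missing call does not show that the transcript was unchanged. With Psmb9 read at 1450696_PM_at, an alternative chosen after seeing the data, none of the 6 genes passed the test after H2O2 in WT MEFs.

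Of the other genes in WT MEFs, Tapbp had the largest difference after H2O2. It read 8.05, 8.24, 8.44 and 8.64 after H2O2, against 7.50, 7.90, 7.84 and 8.18 in untreated cells. The groups overlapped, but each H2O2 array was above the untreated array of its number, by 0.55, 0.34, 0.60 and 0.46. The difference of 0.49 (95% interval -0.03 to 1.003) did not pass the test (adjusted p = 0.458), nor did it in the fit that blocks by replicate (adjusted p = 0.289). That fit takes the effect of each replicate number as shared by all genotypes and treatments. It therefore does not pair arrays within WT MEFs. Psmb8 differed by 0.13 (95% interval -0.86 to 1.13), Psmb10 by -0.0020 (-0.47 to 0.47), Psme1 by -0.13 (-0.58 to 0.32) and Psme2 by 0.11 (-0.37 to 0.59). The interval was widest for Psmb8, whose same-numbered arrays differed by 0.02, 0.29, 0.17 and 0.06. Blocked by replicate, its interval was -0.37 to 0.64 (adjusted p = 0.895).

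In p66-/- MEFs, 1416016_PM_at read 5.38, 6.39, 5.74 and 6.19 after H2O2, against 4.89, 5.27, 5.52 and 5.26 in untreated cells. The groups overlapped, although each H2O2 array was above the untreated array of its number, and the difference of 0.69 (SE 0.29) had an unadjusted p of 0.0278 and an adjusted p of 1. The other 5 genes differed by -0.15 to 0.08. The response to H2O2 at 1416016_PM_at differed between p66-/- and WT MEFs by -0.85 (95% interval -1.71 to 0.01), which did not pass the test (adjusted p = 1). This test called 0.00222% of all probe sets.

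In p53-/- MEFs, 1416016_PM_at read 5.01, 4.25, 5.18 and 4.38 on the arrays labelled H2O2, against 4.85, 4.65, 5.80 and 5.40 on those labelled untreated. The groups overlapped, and the difference was -0.47 by the labels (SE 0.29, adjusted p = 0.441) and 0.47 with the labels exchanged. Tapbp differed by -0.46 by the labels (adjusted p = 0.361) and the other 4 genes by -0.31 to -0.01. The response of 1416016_PM_at to H2O2 differed between p53-/- and WT MEFs by -2.01 according to the labels (SE 0.41, adjusted p = 0.00197; 10.8% of all probe sets called). With the labels exchanged the difference between the responses was -1.07 and did not pass the test (adjusted p = 1; 0.02% of all probe sets called). The response at 1450696_PM_at differed by -0.34 (adjusted p = 0.451) by the labels and by 0.01 (adjusted p = 1) with the labels exchanged.

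A comparison that the exchange of labels leaves as it is sets the p53-/- arrays against the WT arrays, with untreated and H2O2 groups averaged. Here 1416016_PM_at averaged 4.94 in p53-/- and 5.95 in WT MEFs. It fell by 1.01 on the log2 scale in p53-/- MEFs relative to WT MEFs (SE 0.21, adjusted p = 0.0152), where 0.613% of all probe sets fell. The difference was -0.96 within replicates 1 and 2 (adjusted p = 0.0599) and -1.07 within replicates 3 and 4 (adjusted p = 0.00845). At 1450696_PM_at the same comparison gave 0.01 (SE 0.12, adjusted p = 0.991), and the other 5 genes differed by -0.05 to 0.24. The same average of p66-/- against WT MEFs called none of the 6 genes and 0.00444% of all probe sets, with 3732 probe sets at an unadjusted p under 0.05.

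Over the 8 groups, the 2 Doxo groups had the highest mean for each of the 6 genes. No array of the other 6 groups reached the Doxo arrays for Psmb9 at 1416016_PM_at, Psmb10, Psme1 and Psme2. At 1448177_PM_at of Psmb9, WT Doxo replicate 1 read 4.35, below WT H2O2 replicate 3 (4.56) and p53-/- H2O2 replicate 4 (4.37). For Psmb8 the groups overlapped, and p53-/- untreated cells averaged 6.17 ± 0.98 (SD, n = 4). For Tapbp, the lower Doxo group averaged 8.93 and the third group, p53-/- untreated, averaged 8.51 ± 0.33 (SD, n = 4), without overlap, but p66-/- H2O2 replicate 2, at 9.27, was higher than all Doxo arrays. The 6 groups without Doxo had means between 6.998 and 7.32 for Psmb10, 8.69 and 8.95 for Psme1, 8.91 and 9.09 for Psme2 and 5.71 and 6.17 for Psmb8, and neighbouring groups overlapped in each case. Psmb9 at 1416016_PM_at was the gene with the widest order, at 6.72 ± 0.68 in WT H2O2, 5.93 ± 0.45 in p66-/- H2O2, 5.24 ± 0.26 in p66-/- untreated, 5.18 ± 0.17 in WT untreated, 5.18 ± 0.52 in p53-/- untreated and 4.71 ± 0.46 in p53-/- H2O2 cells (SD, n = 4 each). Neighbours in this order overlapped.

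The 6 genes varied together over the arrays. Pearson's r between pairs of them was 0.586 to 0.941 over the 28 arrays (15 pairs, median 0.681), and 0.104 to 0.849 over the 24 arrays without Doxo (median 0.44). These values describe arrays that share treatments and array sets. Among 10966 other genes, the 5 whose values were most like the average of the 6 genes over the 28 arrays were Tmem205 (r = 0.952), Mrpl23 (0.945), Glmp (0.945), Rnf135 (0.943) and Blvrb (0.942). Without the Doxo arrays their r was 0.821 to 0.871.

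Other genes of the same machinery were read alongside. After Doxo, 21.9% of all probe sets rose in WT MEFs and 26.6% in p66-/- MEFs. The constitutive subunits rose too: Psmb5 by 0.51 (SE 0.14, adjusted p = 0.00943) and Psmb6 by 0.74 (SE 0.17, adjusted p = 0.0027) in WT MEFs after Doxo, while Psmb7 differed by 0.96 (SE 0.39) with an adjusted p of 0.0622. Psmb5 in p66-/- MEFs rose by 0.60 and Psmb6 by 0.80, and Psmb7 again differed by 0.96 (adjusted p = 0.0557). After H2O2, these 3 genes differed by -0.02 to 0.16 in WT MEFs and none was called. The median over the 3 constitutive subunits after Doxo was 0.74 in WT MEFs, beside 1.22 over the 6 genes of the immunoproteasome and of loading. In p66-/- MEFs these medians were 0.80 and 1.14. The WT difference of Psmb7 lay above those of Psme1 (0.92) and Psme2 (0.78) and below those of Psmb8, Psmb9, Psmb10 and Tapbp. Both medians over the 6 genes include Psmb9 at the probe set whose transcript is not settled. At its RefSeq-designed probe set, Psmb9 rose by 1.002 in WT and by 0.72 in p66-/- MEFs. Whether these 6 genes rose more than the constitutive subunits was not tested. Of 7 genes of proteasome caps and assembly, 3 rose in WT MEFs after Doxo, namely Psmf1, a proteasome inhibitor (1.07), and the assembly chaperones Psmg4 (0.82) and Psmg1 (0.72), and 4 of 7 rose in p66-/- MEFs.

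Of 12 class I heavy chains, 4 rose in WT MEFs after Doxo: H2-T23 (1.57), H2-T10 (1.21), H2-Q10 (0.43) and H2-T3 (0.34). Of all probe sets, 21.9% rose in WT and 26.6% in p66-/- MEFs. Only H2-Q10 rose in p66-/- MEFs (0.48), but the difference between the 2 genotypes in the response to Doxo was called for none of the 12. These chains resemble each other in sequence, so that their probe sets may read more than 1 of them. Of 9 genes for peptide trimming and for chaperones of loading, 1 rose and 4 fell in WT MEFs, where 13% of all probe sets fell (14.1% in p66-/- MEFs). Tapbpl, a relative of tapasin, rose by 0.93 (SE 0.14, adjusted p = 2.77e-05). The peptidase Tpp2 fell by 1.82, the chaperone calnexin, Canx, fell by 1.08 and the trimming peptidase Erap1 fell by 1.03. Of these genes, 2 rose and 4 fell in p66-/- MEFs, with a median of 0.04 over the list.

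Of 20 regulators measured, 7 rose and 2 fell in WT MEFs after Doxo, and the same counts were found in p66-/- MEFs. Among all probe sets, 21.9% rose and 13% fell in WT MEFs, and 26.6% rose and 14.1% fell in p66-/- MEFs. The kinases of interferon receptors Jak2 fell by 2.21 and Jak1 fell by 0.88 in WT MEFs, whereas the NF-kB subunit Rela rose by 0.68 and the interferon regulatory factor Irf8 by 0.51. Of 17 other interferon-induced genes, 3 rose and 1 fell in WT MEFs, beside 21.9% and 13% of all probe sets. The median over the list was 0.06. Usp18 (3.38, SE 1.01, adjusted p = 0.0136), Igtp (0.83) and Gbp7 (0.49) rose and Ifit2 fell by 1.27. None of the 17 rose in p66-/- MEFs, where the highest difference was 2.19, and Ifit2 fell by 1.74. At an unadjusted p under 0.05 there were 5 of these genes in WT and 3 in p66-/- MEFs after Doxo. The difference between the 2 genotypes in the response to Doxo was called for none of the 17. After H2O2 none of these 17 genes passed the limma test in WT, p66-/- or p53-/- MEFs, and at an unadjusted p under 0.05 there were 0, 0 and 1. In WT MEFs H2O2 called 3.66% of all probe sets in either direction. Isg15 and Bst2 had no probe set with their single symbol and were not analysed here.

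**Figure D4:**
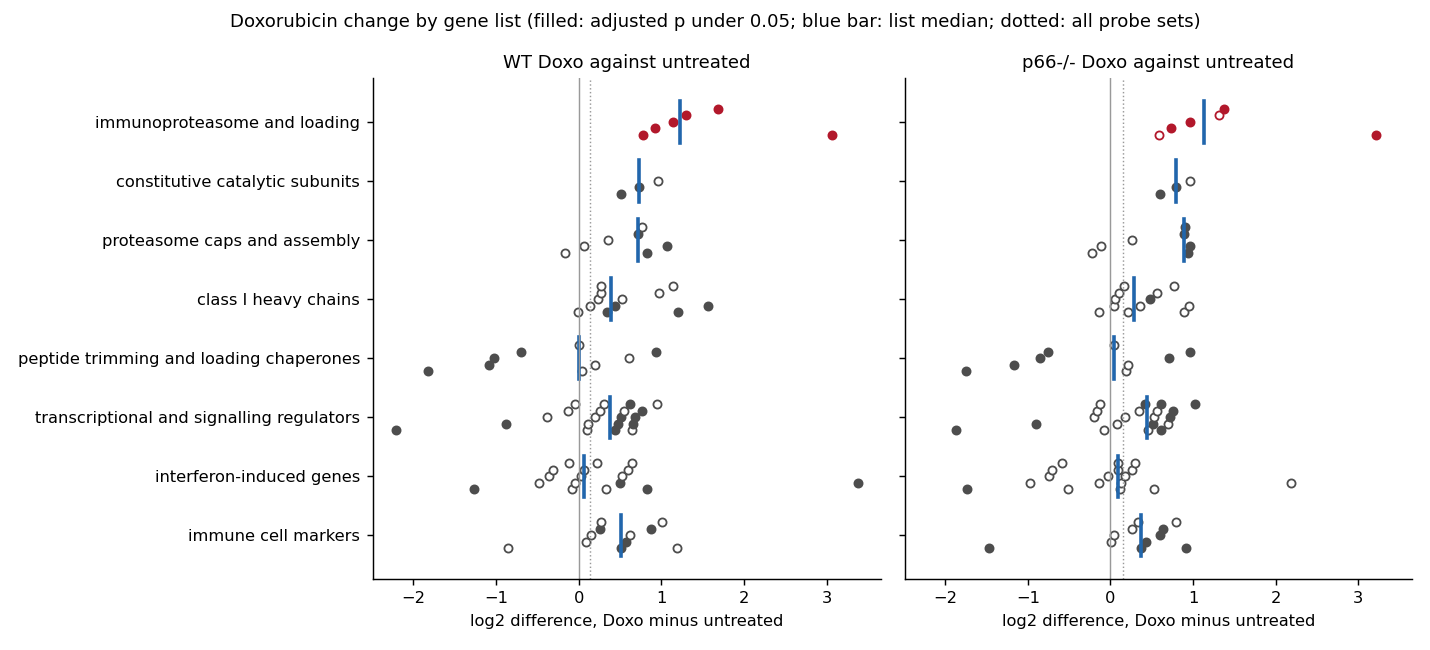
Log2 difference of Doxo minus untreated cells (x axis) for the genes of 8 lists (y axis) in WT MEFs, left, and p66-/- MEFs, right. Each point is a gene, filled where the adjusted p is under 0.05, blue bars are list medians and the dotted line is the median of all probe sets; the genes of the immunoproteasome and of loading (red) lie to the right of 0 in both genotypes, with medians of 1.22 and 1.14.

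Some markers of other cell types were also called after Doxo. Of 11 immune cell markers, 4 rose and none fell in WT MEFs (median 0.51), where 21.9% of all probe sets rose. H2-Aa (0.57) and Cd79a (0.51) were among these 4. In p66-/- MEFs 5 rose and 1 fell (median 0.37), where 26.6% of all probe sets rose. The mean level of the list was 5.62 to 5.80 on the WT Doxo arrays, against 4.75 to 5.61 on the WT untreated arrays, and 5.74 to 5.86 on the p66-/- Doxo arrays, against 5.35 to 5.61 on the p66-/- untreated arrays. Ptprc (CD45), carried by all white blood cells, averaged 3.41 on the WT Doxo arrays, against 4.27 on the WT untreated arrays, and fell by 1.47 in p66-/- MEFs. Lyz2, Cd68, Csf1r and Adgre1, brighter than Ptprc, averaged 10.56, 7.13, 6.98 and 6.27 on the WT Doxo arrays. On the WT untreated arrays they averaged 9.55, 5.93, 6.10 and 5.66, with Lyz2 at 7.07 to 11.01. In p66-/- MEFs they averaged 10.64, 7.10, 7.22 and 6.60 after Doxo, against 10.59, 6.31, 6.30 and 6.59 in untreated cells. Epithelial markers averaged 6.57 to 6.77 on the WT Doxo arrays, against 5.62 to 6.25 on the WT untreated arrays (3 genes), and none of the 3 was called in WT MEFs. In p66-/- MEFs they averaged 7.095 to 7.143 after Doxo, against 5.792 to 6.74 in untreated cells. There 1 of the 3 rose (median 0.853), where 26.6% of all probe sets rose. None of 3 endothelial markers was called in either genotype. Of 7 fibroblast markers, 2 fell and none rose in WT MEFs (median -0.365), where 13% of all probe sets fell. Col1a2 fell by 2.52 and averaged 3.22 on the WT Doxo arrays. Thy1 averaged 11.25 on these arrays, against 10.69 on the WT untreated arrays. In p66-/- MEFs 1 of the 7 fibroblast markers fell and none rose (median -0.11), where 14.1% of all probe sets fell. The part of these markers in the rise of the immunoproteasome and loading genes was not tested.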

How the data were processed

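RNA of MEFs was read on Affymetrix mouse array strips. RMA in Partek 6.5 is the normalization that the authors used, per the submitters' processing notes. Deposited values, which lie on the log2 scale (1.953 to 13.47, array medians 4.353 to 4.464), were used as they are. Arrays have no sequencing depth.

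Control probe sets (104) were left out. Gene names came from the platform's annotation, and coordinates and sequences from RefSeq (GRCm38.p6). limma 3.58.1 in R 4.3.3 fitted the means of 8 groups over 28 arrays, with Benjamini-Hochberg adjustment over 45037 probe sets. It was tested on simulated data.

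The members and lists were chosen with earlier results of these data known. All members were named. From each other list, up to 4 called genes with the lowest adjusted p were named for a comparison, and Psmb5, Psmb6 and Psmb7 always. The 5 genes most like the members had the highest Pearson's r with the average of their centred values. The labels call replicates biological. Deviations from group means correlated between same-numbered H2O2 and untreated arrays at 0.508 to 0.754, so that the numbers pair these arrays. For Doxo the values were -0.0766 to 0.0474, and no pairing by number was seen. With 2 Doxo arrays per genotype, in another array set, this cannot show that they are unpaired. The alternatives tried were the methods' t-test, the compared groups alone, low probe sets left out, further quantile normalization or median centring, the replicate block, the thresholds of the study, the probe set of largest variance, each array left out, each array set alone and exchanged p53-/- labels. The replicate block was shared by all genotypes and treatments, so it did not pair arrays within a genotype. Thymus and other experiments were not analysed here.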

Additional observations from a re-analysis of the deposited data

Results flagged for a closer look

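The response of 1416016_PM_at to H2O2 differed between p53-/- and WT MEFs by -2.01 on the log2 scale by the labels, as tested by an interaction term. With the p53-/- labels exchanged the difference was -1.07 and was not called.

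In 5 of the 60 sets of 4 arrays examined, 1 array stood far from the other 3, where chance marks about 1 in 20. WT untreated replicate 4 read 5.44 at 1416016_PM_at, and the other 3 arrays read 5.07 to 5.12. Psme1 was low on 3 arrays numbered 1. It read 8.18 on p66-/- H2O2 replicate 1 (other arrays of the group 8.81 to 8.92), 8.06 on p66-/- untreated replicate 1 (9.05 to 9.15) and 8.51 on p53-/- H2O2 replicate 1 (9.01 to 9.11). The second probe set of Tapbp, 1450378_PM_at, read 5.16 on p66-/- untreated replicate 2, and 4.43 to 4.47 on the other arrays of the group. The cause was not tested.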

How the results depend on the processing

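Apart from arrays left out, 108 counts under another setting stayed within 1.5 times the reported count and 22 did not. Counts of 0 that stayed at 0, as for H2O2 in p66-/- MEFs, are among the 108. The 108 therefore do not measure how firm the calls are. After H2O2 in WT MEFs, the 1 gene called became 0 with the groups compared alone, with the methods' t-test, with replicates 1 and 2 alone and with Psmb9 read at its RefSeq-designed probe set (chosen after seeing the data), and 2 with replicates 3 and 4 alone. At the thresholds of the study (unadjusted p under 0.05 and 1.5-fold), 1 gene was called after H2O2 in p66-/- MEFs. With replicates 3 and 4 alone, 1 gene, Tapbp, fell after H2O2 in p53-/- MEFs by the labels. After Doxo in p66-/- MEFs, the methods' t-test called 2 genes, against 4. Within 1.5 times, the count was 3 with median centring or the groups compared alone. It was 5 with further quantile normalization, the replicate block or the thresholds of the study, and 6 with replicates 3 and 4 alone. For Doxo against H2O2 in p66-/- MEFs (4 genes), it was 3 with the t-test and 6 with replicates 3 and 4 alone. The t-test was not run for differences between responses or averages over treatments. For Doxo against H2O2 in WT MEFs (3 genes), the count was 1 with the groups compared alone, 0 with the methods' t-test, 5 with the replicate block, 6 with replicates 3 and 4 alone and 6 at the thresholds of the study. For the difference between p53-/- and WT MEFs in the response to H2O2 (1 gene), the count was 0 with the labels exchanged, with the RefSeq-designed probe set and with replicates 1 and 2 alone, and 2 with the groups alone, with replicates 3 and 4 alone and at the thresholds of the study. For p53-/- against WT MEFs, averaged (1 gene), it was 0 with the groups alone, with the RefSeq-designed probe set, where the value of Psmb9 turned to 0.0076, and with replicates 1 and 2 alone. The cause was not tested.

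With the replicate block, Psmb8 passed the test after Doxo in p66-/- MEFs (1.88, adjusted p = 3.25e-05) and for Doxo against H2O2 in WT (2.12, adjusted p = 1e-05) and p66-/- MEFs (1.83, adjusted p = 4.01e-05), as did Psme2 for Doxo against H2O2 in WT MEFs (0.77, adjusted p = 0.006). No pairing by number was seen for the Doxo arrays, and the block changed no other call of the 6 genes. Each H2O2 array correlated best with the untreated array of its number, except replicates 3 and 4 of p66-/- MEFs. When single arrays were left out, the counts were 2 to 5 for Doxo in WT MEFs, 2 to 5 for Doxo in p66-/- MEFs, 1 for H2O2 in WT MEFs, 2 to 4 for Doxo against H2O2 in WT MEFs and 3 to 5 in p66-/- MEFs. Of 1125 single values that were called under neither setting, 103 changed sign.

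Doxo shifted the median of all probe sets by 0.13 in WT and 0.15 in p66-/- MEFs, and by 0.10 and 0.09 after median centring. The array medians, 4.353 to 4.464, lie below the mean of each member's main probe set. The part of a general shift among brighter probe sets in the members' rises was not tested. Centring moved the share of called probe sets that were higher after H2O2 in p53-/- MEFs to 56.5%, against 46.3% without it, but none of the 6 genes was called under either. With 2 Doxo arrays per genotype, a single array decides several calls.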

Other observations

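The 2 regulators given here were chosen after their values were seen. Rfxap, a subunit of the RFX complex that binds promoters of class I and class II genes, rose after Doxo by 0.66 in WT MEFs (SE 0.24, adjusted p = 0.0402) and by 0.76 in p66-/- MEFs (SE 0.24, adjusted p = 0.0169). After H2O2 it fell by 0.93 in WT MEFs (SE 0.20, adjusted p = 0.00717) and differed by -0.17 in p66-/- MEFs (adjusted p = 1). In p53-/- MEFs it rose after H2O2 by 0.82 according to the labels (SE 0.20, adjusted p = 0.0169), a value whose sign turns with the labels exchanged. The direct difference of Doxo from H2O2 was 1.59 in WT MEFs (adjusted p = 5.72e-05).

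Relb, an NF-kB subunit, fell after H2O2 in p53-/- MEFs by 1.17 by the labels (SE 0.32, adjusted p = 0.0354), and with the labels exchanged it rose by 1.17. Its response in p53-/- MEFs differed from that in WT MEFs by -2.21 by the labels (adjusted p = 0.00185) and by 0.13 with the labels exchanged (adjusted p = 1). It differed by 1.04 in WT MEFs (adjusted p = 0.0789) and by -0.10 in p66-/- MEFs (adjusted p = 1).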
